A study of Homo sapiens with 2 samples.

Results

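The distal open-chromatin peaks of chromosome 6 in HepG2 cells were examined by position, list, nearest gene and sequence. Distal peaks were those that the deposited annotation placed in an intron or between genes, and 3930 of the 56159 peaks of the series lay in these classes on chromosome 6. The members were thus selected on the peak calls themselves, by chromosome and annotation class, so that their number on the chromosome is a description. They fell into 819 peaks common to both libraries, 1211 specific to the control library and 1900 specific to the NR2E3-depleted library. The 3930 peaks made up most of the 4760 peaks of the chromosome and 8.52% of the 46143 distal peaks of chromosomes 1 to 22 and X. The remaining peaks of the chromosome included 579 promoter peaks.

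The study measured chromatin with FAIRE-seq in HepG2, an established human liver cancer cell line. The control cells received lentiviral particles with a scrambled small hairpin RNA, and the NR2E3-depleted cells received particles with a small hairpin RNA against NR2E3, an orphan nuclear receptor. Both groups were grown in the same medium, and each had 1 library, so no difference between the lists has a replicate check and no p-value was computed. Intervals are at 95%, reflect counting error alone and take peaks as independent, which clustered peaks are not. The lists hold no input library, the copy number of the regions was not analysed here, and the level of NR2E3 cannot be read from them.

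In FAIRE, chromatin is crosslinked and sheared, and the DNA that stays free of protein after extraction is sequenced. Nucleosome-poor stretches, such as active promoters and enhancers, are enriched in that fraction. Distal peaks of this kind are often enhancers, which loop to a promoter that need not be the nearest one. Chromosome 6 carries the main histone gene cluster and the major histocompatibility complex (MHC) on its short arm. Its long arm holds long gene-poor stretches next to the centromere and, towards the end, a cluster of liver genes that includes LPA and PLG. Hepatocyte enhancers are bound by factors such as HNF4A and FOXA2. Among genes taken as markers of hepatocytes and HepG2, HNF4A, FOXA2, APOA1, APOB and SERPINA1 had a promoter peak in some list. ALB and AFP had other peaks but none at the promoter, and TTR had no peak.

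The sequences below are hg38 reference bases of the plus strand, 5′ to 3′, from the central 200 bp of 9 peaks. They are shown because the first 5 are among the highest scores of the common and depleted-specific lists, the next is a high control-specific score, and the last 3 hold motifs or positions to which the results return. Capitals mark matches to the short motifs described further on, on either strand.
Common peak 134658 bp upstream of IFNGR1, chr6:137353989-137354188: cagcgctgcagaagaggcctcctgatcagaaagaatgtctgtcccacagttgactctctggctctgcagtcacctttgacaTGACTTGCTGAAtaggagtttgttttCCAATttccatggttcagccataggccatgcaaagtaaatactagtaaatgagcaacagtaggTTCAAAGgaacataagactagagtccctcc
Common peak within BLOC1S5-TXNDC5, chr6:7975117-7975316: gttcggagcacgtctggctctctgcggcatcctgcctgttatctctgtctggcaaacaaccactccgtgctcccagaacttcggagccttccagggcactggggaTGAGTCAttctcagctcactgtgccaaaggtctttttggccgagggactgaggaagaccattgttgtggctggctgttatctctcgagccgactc
Common peak upstream of TFB1M, chr6:155329061-155329260: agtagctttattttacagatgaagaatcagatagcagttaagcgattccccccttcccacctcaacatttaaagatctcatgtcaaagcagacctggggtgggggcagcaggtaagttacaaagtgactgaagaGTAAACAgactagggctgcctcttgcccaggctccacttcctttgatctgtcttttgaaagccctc
Depleted-specific peak upstream of TFB1M, chr6:155328731-155328930: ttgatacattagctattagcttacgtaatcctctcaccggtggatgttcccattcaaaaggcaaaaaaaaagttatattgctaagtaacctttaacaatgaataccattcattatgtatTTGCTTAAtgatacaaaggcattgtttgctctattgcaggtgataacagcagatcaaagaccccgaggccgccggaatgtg
Depleted-specific peak within CAGE1 and SSR1, chr6:7342414-7342613: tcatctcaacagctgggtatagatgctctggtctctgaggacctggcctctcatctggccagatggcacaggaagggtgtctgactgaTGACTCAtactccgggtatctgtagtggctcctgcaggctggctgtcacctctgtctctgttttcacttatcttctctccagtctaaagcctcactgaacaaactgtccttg
Control-specific peak within an intron of GCM1, chr6:53135192-53135391: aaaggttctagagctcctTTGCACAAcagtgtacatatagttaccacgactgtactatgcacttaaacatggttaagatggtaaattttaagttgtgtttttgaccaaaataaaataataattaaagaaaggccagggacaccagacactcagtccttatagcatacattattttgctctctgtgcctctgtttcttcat
Common peak within an intron of ARHGAP18, chr6:129695432-129695631: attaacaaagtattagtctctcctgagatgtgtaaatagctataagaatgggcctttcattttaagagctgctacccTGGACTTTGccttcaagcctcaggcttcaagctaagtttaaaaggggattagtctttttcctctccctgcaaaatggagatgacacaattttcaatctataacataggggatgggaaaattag
Common peak upstream of PTP4A1, chr6:63516319-63516518: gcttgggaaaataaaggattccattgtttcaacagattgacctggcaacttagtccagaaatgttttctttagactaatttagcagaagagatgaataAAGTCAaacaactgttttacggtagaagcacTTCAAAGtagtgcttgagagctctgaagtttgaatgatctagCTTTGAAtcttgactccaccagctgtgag
Depleted-specific peak within an intron of FBXL4, chr6:98944617-98944816: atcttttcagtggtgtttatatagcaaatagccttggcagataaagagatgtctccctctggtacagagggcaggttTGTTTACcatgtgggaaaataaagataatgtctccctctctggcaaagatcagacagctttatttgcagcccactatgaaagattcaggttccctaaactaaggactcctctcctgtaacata

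The IFNGR1 peak, near the gene of an interferon gamma receptor chain, and the BLOC1S5-TXNDC5 peak shared the highest common score of 15, or 37 sequenced tags. The SSR1 peak had the highest depleted-specific score of 15.2, or 30 tags. The same score stands for more tags in the control library, because 1 tag added 0.407 to a score of the control-specific and common lists and 0.507 to a depleted-specific one. The GCM1 peak had a score of 9.35 or 23 tags, and the highest control-specific score, 10.2 or 25 tags, was at a peak 2278 bp upstream of DCDC2. Both TFB1M peaks had a score of 14.2, which was 35 tags in the common and 28 tags in the depleted-specific peak. Their starts lay 330 bp apart, so a peak listed as specific to 1 library was directly beside a peak listed in both.

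Such neighbours were a minority. Of the control-specific distal peaks, 13.4% (11.5 to 15.4) had a peak of the NR2E3-depleted library within 1000 bp. Of the depleted-specific distal peaks, 10.2% (8.89 to 11.7) had a peak of the control library within that distance. The peaks as a whole rested on few tags, with a median of 16 in the common, 14 in the control-specific and 12 in the depleted-specific list. The Poisson interval of 14 tags is 7.65 to 23.5 and that of 12 tags is 6.20 to 21.0. A score of at least 10 takes fewer tags in the depleted-specific list than in the others. It was reached by 69 common, 1 control-specific and 38 depleted-specific peaks. A single peak was thus imprecisely measured, and the sections on density and mix rest on numbers of peaks.

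The distal peaks were split almost evenly between 2056 intronic and 1874 intergenic ones. Introns held 52.3% of them on chromosome 6 and 51.6% over all chromosomes. The median distance to the annotated transcription start site was 26.9 kb, with quartiles of 10017 and 60877 bp, and 75.01% lay more than 10 kb away. Common peaks were the closest by the median, at 23260 bp, followed by control-specific peaks at 26414 bp and depleted-specific peaks at 29878 bp.

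The short arm held more distal peaks than the long arm although it is the shorter of them. The arms were divided at 60 Mb, within the centromeric stretch. The short arm had 2153 distal peaks, or 36.1 per Mb of determined sequence, and the long arm had 1777, or 16.1 per Mb. The ratio of the densities was 2.24 (2.10 to 2.39). It was 2.48 (2.15 to 2.86) for common, 2.37 (2.11 to 2.66) for control-specific and 2.07 (1.89 to 2.27) for depleted-specific peaks, so each list was denser on the short arm. Protein-coding genes were denser on the short arm as well, with 619 against 432 genes and a density ratio of 2.65 (2.34 to 3.01). The intervals of both ratios overlapped, which does not show that the ratios were equal. Promoter peaks per coding gene differed less between the arms, with a ratio of 1.22 (1.03 to 1.45). Whether copy number has a part in the densities of the arms was not tested.

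The arms were not uniform, and the counts per 1 Mb divided the chromosome into 3 segments. The steps between segments were placed by the counts themselves, so the contrast between segments is a description. Density was 37.7 per Mb (36.1 to 39.3) from the end of the short arm to 57 Mb and 4.69 per Mb (4.15 to 5.28) from there to 116 Mb. It was 27.6 per Mb (26.3 to 29.1) from 116 Mb to the end of the long arm at 171 Mb. In finer bins of 100 kb the steps were placed at 57.3 and 115.9 Mb. The first step lay inside the short arm, shortly before the centromere, while the second lay well inside the long arm. They are called the short-arm, the sparse and the distal long-arm segment here.

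**Figure D1:**
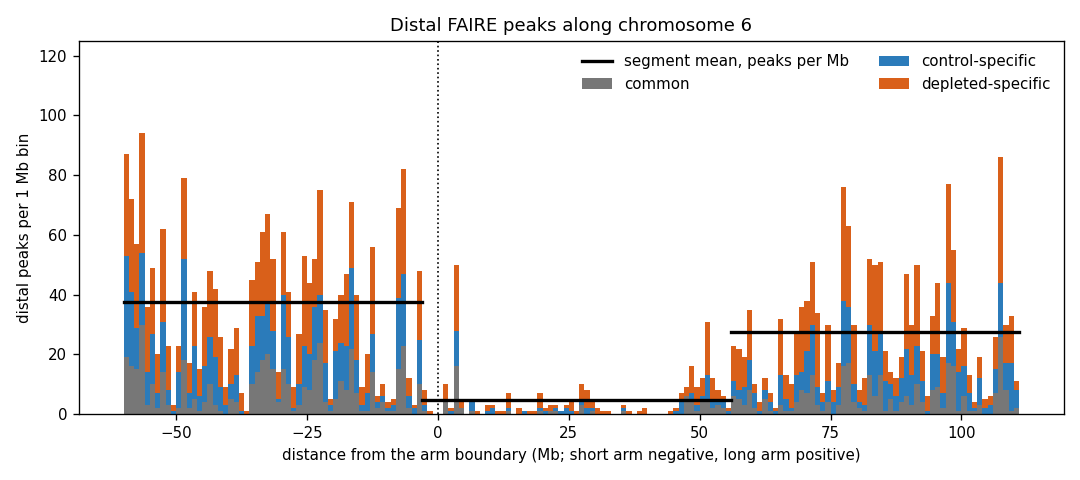
Distal FAIRE peaks of chromosome 6 in 1 Mb bins, stacked by list, against the distance from the arm boundary in Mb (dotted line). Black lines give the mean density of the 3 segments, 37.7, 4.69 and 27.6 peaks per Mb, and the tallest bin holds 94 peaks.

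The plot of counts along the chromosome shows a wide trough between 2 dense ends. The short-arm segment held 2144 distal peaks with a median of 40 per bin and no empty bin among 57. The sparse segment held 274 peaks with a median of 2 per bin, and 12 of its 59 bins were empty. The distal long-arm segment held 1512 peaks with a median of 22 per bin and no empty bin among 55. Neighbouring peaks were a median of 10.3 kb apart in the short-arm segment, 41.6 kb in the sparse segment and 13.9 kb in the distal long-arm segment.

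Per Mb, the short-arm segment had 8.03 times (7.08 to 9.14) the distal peaks of the sparse segment, against 3.50 times (2.96 to 4.16) the coding genes. The distal long-arm segment had 5.90 times (5.18 to 6.73) the distal peaks of the sparse segment, against 1.53 times (1.26 to 1.86) the coding genes. Between these segments distal peaks differed by more than genes did. The limits were placed by the counts of distal peaks and not by those of genes. A larger fold for the peaks is therefore partly built in. Promoter peaks per coding gene, in contrast, numbered 0.586 in the short-arm, 0.461 in the sparse and 0.529 in the distal long-arm segment. Their ratio between the short-arm and the sparse segment was 1.27 (0.999 to 1.63), an interval that includes 1.

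The lists placed the steps differently. Control-specific peaks alone gave steps at 57.3 and 115.9 Mb, at the places found for all lists together. Depleted-specific peaks alone gave 57.3 and 107.8 Mb. Common peaks alone gave 63.6 and 107.4 Mb, with 7.71 per Mb before the first step and 0.279 per Mb after it. With 0.5 Mb bins, 3 steps were found, at 57, 106.5 and 128 Mb, with densities of 37.7, 3.33, 13.95 and 31.0 per Mb. Counts were uneven on both sides of the first step. The bins from 54 to 57 Mb held 12, 3 and 48 distal peaks, and 1 island of peaks lay beyond the step. The second boundary was a slope over some Mb.

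The island and the slope can be seen in single stretches, whose limits were chosen after the counts were seen. The last bin before the step, from 56 to 57 Mb, held 48 distal peaks. The 6 bins from 57 to 63 Mb around the centromere held 21. The next bin, from 63 to 64 Mb, held 50, of which 16 were common, 12 control-specific and 22 depleted-specific. It lies at PTP4A1, which encodes a protein tyrosine phosphatase, and PTP4A1 was the nearest gene of 20 distal peaks, the highest number in the sparse segment. Of these, 11 were common, 5 control-specific and 4 depleted-specific, and the PTP4A1 sequence printed above is from the peak with the highest common score of the segment, 12.6 or 31 tags. LGSN followed with 19 peaks, made up of 4 common, 4 control-specific and 11 depleted-specific ones.

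The emptiest stretch ran from 64 to 106 Mb. It held 91 distal peaks, or 2.17 per Mb (1.75 to 2.66), of which 12 were common, 21 control-specific and 58 depleted-specific. It also held 119 coding genes and 49 promoter peaks. The longest gap between neighbouring distal peaks of the chromosome lay here, from 99822930 to 104339112, a distance of 4.52 Mb. The FBXL4 peak printed above, in an intron of a gene for an F-box protein linked to mitochondrial DNA maintenance, lay before this gap. It had the highest depleted-specific score of the sparse segment, 11.2 or 22 tags. From 106 to 116 Mb the density was 11.2 per Mb (9.22 to 13.5), with 26 common, 28 control-specific and 58 depleted-specific peaks, no bin being empty.

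Dense bins were frequent on chromosome 6. Dense was used for bins above 15 distal peaks per Mb, which is 3 times the median over all 1 Mb bins. On chromosome 6, 81 of 171 bins (47.4%) were dense, against a background of 20% of 2921 bins over all chromosomes. In the short-arm segment 42 of 57 bins were dense, in the distal long-arm segment 36 of 55, and in the sparse segment 3 of 59. Set against the chromosomes as wholes, chromosome 6 ranked 6 by density with 23.1 distal peaks per Mb, behind 20, 14, 16, 17 and 2. Those 5 ranged from 27.9 to 129 per Mb, and the remaining 17 chromosomes from 0.413 to 11.95 with a median of 5.45. The sparse segment, at 4.69 per Mb, was thus near the median of the sparse chromosomes, whereas the distal long-arm segment was at the level of chromosomes 2 and 17 and the short-arm segment was above it. The part of copy number in these densities was not tested.

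**Figure D2:**
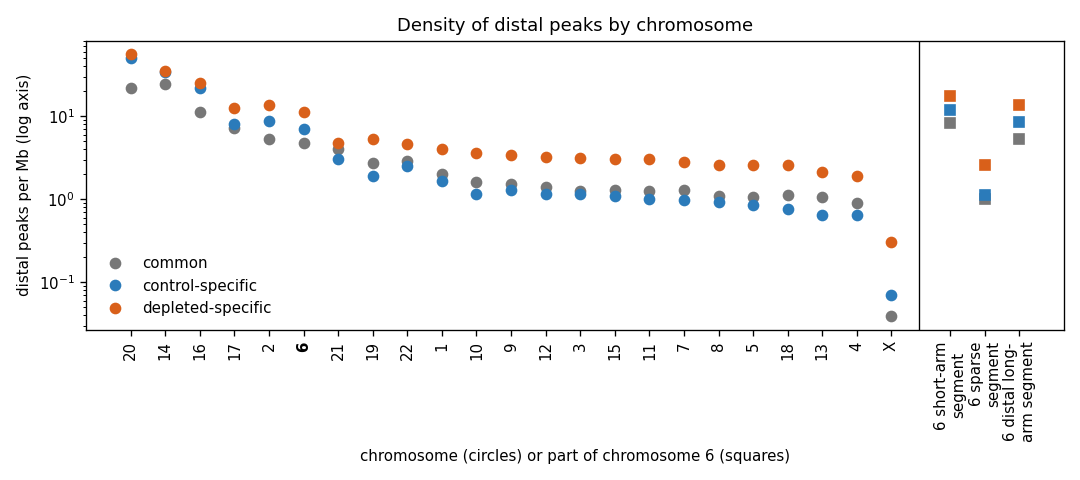
Distal peaks per Mb of determined sequence (log axis) by list for each chromosome, ordered by the density of all lists (circles), and for the 3 segments of chromosome 6 (squares). Chromosome 6 ranks 6 with 23.1 per Mb over all lists, and its sparse segment sits among the 17 chromosomes of low density while the other segments sit with the dense ones.

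The bins with the most distal peaks were spread over both dense segments. The bin from 3 to 4 Mb held 94, led by SLC22A23, and the bin from 0 to 1 Mb held 87, led by DUSP22. The bin from 167 to 168 Mb, close to the other end, held 86, and the bin from 53 to 54 Mb, close to the first step, held 82. The bin from 11 to 12 Mb held 79, led by NEDD9. Lower places among the first 10 went to bins led by PIM1 with 75 peaks and by VEGFA, the vascular growth factor, with 71. The histone gene cluster from 25723397 to 27893891, with 55 histone genes among 75 coding genes, held 143 distal peaks or 65.9 per Mb (55.5 to 77.6). The MHC from HLA-F to HLA-DPB1, from 29722775 to 33089696, held 121 or 35.9 per Mb (29.8 to 42.9), close to the mean of its segment, although it holds 137 coding genes. The limits of both regions were chosen after the counts were seen.

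Over the 171 bins, the number of distal peaks was related to the number of coding genes (Spearman correlation 0.616), to GC content (0.691) and to the number of promoter peaks (0.661). The bins share 2 libraries and differ in gene and base content together, so these values are descriptions. Control-specific and depleted-specific counts per bin, which come from different libraries, had a Spearman correlation of 0.905. Within the sparse segment that value was 0.573 over 59 bins, most of which held few peaks.

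The mix of the specific lists varied along the chromosome. Depleted-specific outnumbered control-specific distal peaks by 1.57 times (1.46 to 1.69) on chromosome 6. The ratio was 1.47 (1.33 to 1.63) in the short-arm segment, with 998 and 678 peaks, and 1.61 (1.43 to 1.81) in the distal long-arm segment, with 752 and 468. It was 2.31 (1.71 to 3.14) in the sparse segment, with 150 and 65. In shares, 59.6%, 61.6% and 69.8% of the specific peaks of these segments were depleted-specific. The short-arm segment had a share 10.2 points below the sparse segment (-16.7 to -3.20) and 2.09 points below the distal long-arm segment (-5.73 to 1.57). The distal long-arm segment was 8.13 points below the sparse segment (-14.8 to -0.969). The arms as wholes differed by -3.17 points (-6.64 to 0.314), an interval that includes 0. At a score of at least 6 that difference was -4.17 points (-8.20 to -0.0995), without 0.

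The size of the ratio depended on the threshold on peaks, because scores of the libraries are on different scales. With peaks of at least 12 tags the ratio on chromosome 6 was 1.16 (1.07 to 1.25), and with a score of at least 6 it was 2.73 (2.46 to 3.03). At 12 tags the ratios were 1.07 (0.962 to 1.19) in the short-arm, 1.70 (1.24 to 2.36) in the sparse and 1.21 (1.07 to 1.37) in the distal long-arm segment. The sparse segment had the highest ratio under each threshold. Its difference from the distal long-arm segment had an interval that included 0 at a score of at least 6, at -6.24 points (-13.3 to 2.03).

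**Figure D3:**
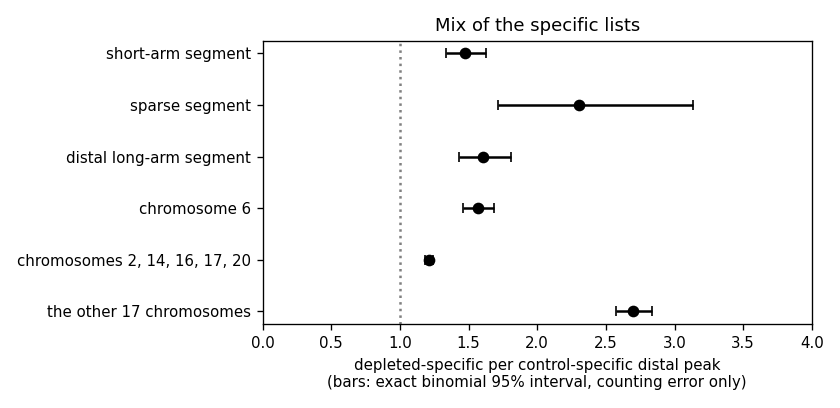
Depleted-specific per control-specific distal peak (horizontal axis, ratio) in the segments of chromosome 6, on chromosome 6 as a whole and on 2 groups of other chromosomes, with exact binomial 95% intervals of counting error. The sparse segment, at 2.31, lies near the 2.70 of the 17 chromosomes of low density, and the dense segments, at 1.47 and 1.61, lie nearer the 1.21 of chromosomes 2, 14, 16, 17 and 20.

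The plot of ratios sets these values beside other chromosomes. Chromosomes 2, 14, 16, 17 and 20 together had a ratio of 1.21 (1.18 to 1.24), ranging from 1.03 on chromosome 14 to 1.58 on chromosome 17. The remaining 17 chromosomes together had 2.70 (2.58 to 2.83), ranging from 1.57 on chromosome 21 to 4.27 on chromosome X. The short-arm segment of chromosome 6 was within the range of the first group, the distal long-arm segment at 1.61 was slightly above it and also inside the range of the second, and the interval of the sparse segment included the value of the second.

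Single bins were compared where they held at least 10 specific distal peaks. Depleted-specific peaks outnumbered control-specific ones by over 2 times in 23 of 89 such bins of chromosome 6 (25.8%), below the background of 36.0% of 749 bins. Control-specific peaks were in excess in 11 of the 89 bins (12.4%), near the background of 11.1%. Of these 11 bins, 8 were in the short-arm segment and 3 in the distal long-arm segment. They included the bin of NEDD9 with 34 control-specific and 27 depleted-specific peaks, that of VEGFA with 27 and 22, and that of TAGAP with 13 and 8. The bins with control excess were therefore about as frequent as elsewhere. These counts per bin were not repeated at a common tag minimum.

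The distal peaks had 893 nearest genes in the deposited annotation, 597 of them among the 1051 protein-coding genes of the chromosome, a background of 56.8%. A single peak was listed for 276 genes, whereas 99 genes had at least 10 and together held 41.4% of the distal peaks. The 10 genes with the most held 339, or 8.63%. Nearness is a position and does not show which promoter a site acts on.

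NEDD9, a scaffold protein of focal adhesions, was nearest to the most distal peaks. It had 46, of which 11 were common, 21 control-specific and 14 depleted-specific, between 11172470 and 11449704. Of these, 29 lay within the gene. DUSP22, a dual-specificity phosphatase at the end of the short arm, had 42, of which 12 were common, 17 control-specific and 13 depleted-specific. They crowded into 74.9 kb, and the 36 distal peaks inside the gene came to 603 per Mb of gene. ATXN1, a chromatin-associated repressor known from spinocerebellar ataxia, had 39 peaks over 410 kb, with 9, 14 and 16 in the common, control-specific and depleted-specific lists. These leading genes of the short arm thus differed in the width of their peak fields, and NEDD9 and DUSP22 had more control-specific than depleted-specific peaks.

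SLC22A23, of the organic ion transporter family, had 33 distal peaks, of which 12 were common, 6 control-specific and 15 depleted-specific. PIM1, a serine/threonine kinase of cell survival, had 30, of which 12 were common, 10 control-specific and 8 depleted-specific. Its gene spans 5.28 kb, and 29 of the 30 peaks were intergenic. ADGRF1, an adhesion G protein-coupled receptor, was similar, with 27 of 29 peaks between genes, 11 of them common, 6 control-specific and 12 depleted-specific over all 29. LINC01622, a long non-coding RNA gene near the short-arm end, had 29, of which 4 were common, 9 control-specific and 16 depleted-specific. Most peaks of PIM1 and ADGRF1 thus lay between genes, whereas 24 of the SLC22A23 peaks were intronic.

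On the long arm, ARHGAP18, a GTPase-activating protein, had 31 distal peaks over 420 kb, of which 8 were common, 5 control-specific and 18 depleted-specific. Here depleted-specific outnumbered control-specific peaks by 13, the largest such difference of any nearest gene. NHSL1, a regulator of the actin cytoskeleton, had 28 peaks, with 10, 8 and 10 in the common, control-specific and depleted-specific lists. All 28 lay within the GENCODE span of the gene, although the deposited annotation placed 5 of them between genes. The 32 peaks listed for SNORA98, a small nucleolar RNA, belonged by position to another gene, since 29 of them lay within UTRN. Counted by position, UTRN, which encodes the dystrophin-related protein utrophin, held 38 distal peaks, the most of any coding gene, with 9 common, 11 control-specific and 18 depleted-specific. In all, 1990 distal peaks (50.6%) lay within 480 coding genes. Distance to the nearest annotated start and position within a gene therefore gave different leading genes.

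**Figure D4:**
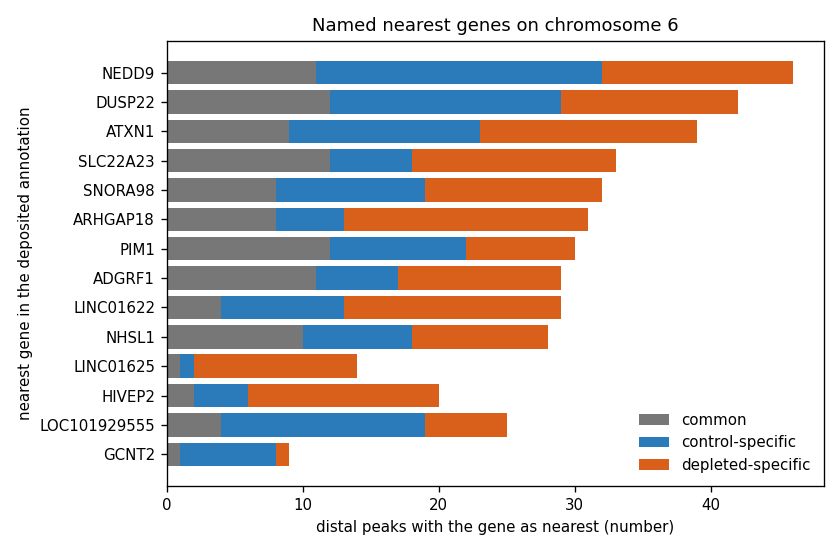
Number of distal peaks of chromosome 6 by nearest gene in the deposited annotation, stacked by list, for the 10 genes with the most peaks and the further genes with the largest differences between the specific lists. NEDD9 leads with 46 peaks, ARHGAP18 has 18 depleted-specific against 5 control-specific peaks, and LOC101929555 has 15 control-specific against 6 depleted-specific peaks.

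The plot by nearest gene also holds the genes with the largest differences between the specific lists, which were chosen by that difference. After ARHGAP18 these were LINC01625, with 12 depleted-specific and 1 control-specific peak, and HIVEP2, a zinc-finger transcription factor, with 14 and 4. AIG1 had the same numbers as HIVEP2 and so tied with it. In the other direction they were LOC101929555 with 15 control-specific and 6 depleted-specific peaks, NEDD9 with 21 and 14, and GCNT2, a glycan-branching enzyme, with 7 and 1. Smaller differences of either direction occurred on both arms, as at SLC22A23 and ARG1. The lowest peak had 9 tags in the depleted-specific and 11 tags in the control-specific list. These differences per gene were not recounted at a common tag minimum. The ratio of the whole chromosome moved from 1.57 to 1.16 at 12 tags or more.

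Gene lists of chromosome 6 were counted whole, against the 56.8% of coding genes that were nearest to some distal peak. Of 21 matched genes of hepatocytes and plasma proteins, 18 had a distal peak (85.7%), 63 peaks in all with 12 common, 24 control-specific and 27 depleted-specific. ALDH8A1, an aldehyde dehydrogenase of liver, had 11, of which 9 were depleted-specific and 2 control-specific. The transporters SLC22A3 and SLC17A2 had 7 each, SLC22A3 with 1 common, 2 control-specific and 4 depleted-specific peaks, and SLC17A2 with 5 common, 2 control-specific and no depleted-specific peak. ARG1, the urea cycle enzyme, had 5 control-specific and 1 depleted-specific peak, and LPA and PLG had 2 each. The last 3 genes, unlike those before, were singled out after their values were seen.

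All 10 genes of the redox and glutathione list had a distal peak, 35 in all. GCLC, the catalytic subunit of the enzyme that limits glutathione synthesis, had 9, of which 2 were common, 1 control-specific and 6 depleted-specific. TXNDC5, a protein disulfide isomerase, had 5, and GSTA1 and MMUT had 4 each. MMUT, a gene for a mitochondrial mutase, was counted with the list but is not a redox or glutathione gene in the strict sense. Of 23 growth control genes, 19 had a distal peak (82.6%), led by PIM1 with 30 peaks, ARID1B, a subunit of a chromatin remodelling complex, with 22 and CCN2, a matricellular growth factor, with 15. Of the CCN2 peaks 8 were common, 3 control-specific and 4 depleted-specific. Each of these lists was above the background share, and genes with longer surroundings can hold more peaks, which the counts do not allow for.

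Of 11 Wnt and Notch genes, 6 had a distal peak (54.5%), near the background. TIAM2, an exchange factor for Rac, had 12 with 1 common, 4 control-specific and 7 depleted-specific, and DACT2, an inhibitor of Wnt signalling, had 11 with 3, 5 and 3. TIAM2 was counted with the list but is not a Wnt or Notch gene in the strict sense. PPARD, a lipid-sensing nuclear receptor, had 8 with 2, 1 and 5. RSPO3, a secreted enhancer of Wnt signalling singled out after its values were seen, had 5, which were all depleted-specific and had scores of at most 6.08. The counts of these genes are by nearest gene, and position gave other numbers. Inside PPARD lay 9 distal peaks, 4 from the depleted-specific list, 2 from the control-specific and 3 from the common one. The depleted-specific excess at PPARD was thus smaller by position. In the same order, TIAM2 contained 12, 8 and 4, DACT2 contained 0, 2 and 1, and RSPO3 contained 2, 0 and 0. The list of 19 developmental transcription factor genes also held co-regulators, such as ATXN1 and JARID2. Of the 19, 12 had a distal peak (63.2%), led by ATXN1 with 39, JARID2 with 27 and RREB1 with 23. JARID2, a component of a Polycomb complex, had 16 depleted-specific, 9 control-specific and 2 common peaks, and RREB1, a Ras-responsive factor, had 14, 5 and 4. Of 4 nuclear receptor genes, ESR1 had 12, with 3 common, 2 control-specific and 7 depleted-specific peaks, RXRB had 2 and NR2E1, of the same receptor subfamily as NR2E3, had none.

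The distal peaks were richer in GC than the chromosome. Their central 200 bp had a median GC content of 43.5%, against 38.5% in all 850378 consecutive windows of that length on chromosome 6 and 44% in distal peaks of other chromosomes. Common peaks had 45% and both specific lists 43.5%. The sparse segment was lowest among both the peaks, at 42.5%, and all windows, at 37%, so that the peaks exceeded their surroundings in each segment. The short-arm segment had 44.5% against 41% and the distal long-arm segment 43% against 38.5%.

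Short motifs were searched on both strands in the same windows, with N standing for any base. They were GGGCGG for Sp1, CCAAT for NFY, TGANTCA for AP-1, TGTTTAC for FOXA, CAAAGTCCA for HNF4A, TTGCNNAA for CEBP, CCACNAGG or CCAGNAGG for CTCF, TTCAAAG for TCF7L2 and AAGTCA for a half-site of NR2E3. Some of these can overlap, as the CEBP and NR2E3 half-site matches do in the IFNGR1 sequence, where they share bases. A match describes the letters and is not evidence of binding.

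The HNF4A and FOXA motifs were most frequent in common peaks. The HNF4A motif, of a master regulator of hepatocyte genes, was in 3.17% (2.08 to 4.62) of common, 0.908% (0.454 to 1.62) of control-specific peaks and 0.789% (0.442 to 1.30) of depleted-specific ones, against 0.246% of all windows. Compared with windows of like GC content these were folds of 11.1, 3.04 and 2.66. The ARHGAP18 sequence holds such a match, in an intron of the gene. The FOXA motif was in 8.42% (6.61 to 10.5) of common, 4.54% (3.44 to 5.87) of control-specific peaks and 5.05% (4.112 to 6.135) of depleted-specific ones, against 3.32% of all windows. Against windows of like GC content the FOXA folds were 3.45, 1.69 and 1.88. The FOXA motif stands in the common TFB1M peak and in the FBXL4 peak. For both motifs the intervals of the specific lists lay below that of the common list and overlapped each other.

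The AP-1 motif, bound by dimers of FOS and JUN proteins, differed between the specific lists. It was in 12.7% (10.5 to 15.2) of common, 6.94% (5.57 to 8.52) of control-specific peaks and 10.9% (9.58 to 12.4) of depleted-specific ones, against 6.31% of all windows. The depleted-specific share exceeded the control-specific share by 4.01 points (1.92 to 6.03) on chromosome 6 and by 2.49 points (1.87 to 3.11) on the other chromosomes. With peaks of at least 12 tags, a setting chosen after the data were seen, the difference on chromosome 6 was 4.32 points (2.07 to 6.56). Control-specific peaks held the motif about as often as windows of like GC content, with a fold of 1.065, and depleted-specific peaks with a fold of 1.69. The sequences at SSR1 and BLOC1S5-TXNDC5, among the highest scores of their lists, each hold 1 match.

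The Sp1 motif was in 6.35% of common, 1.73% of control-specific distal peaks and 2.89% of depleted-specific ones, against 2.33% of all windows. Against windows of like GC content the folds were 1.27, 0.610 and 0.935, while without regard to GC content the fold in common peaks was 2.72. The depleted-specific share exceeded the control-specific share by 1.16 points (0.0128 to 2.24) on chromosome 6 and by 1.13 points (0.722 to 1.54) on the other chromosomes. The TCF7L2 motif, of a partner of beta-catenin, was in 11.1% (9.04 to 13.5), 5.70% (4.46 to 7.16) and 7.16% (6.04 to 8.41), against 5.58% of all windows. Against windows of like GC content the TCF7L2 folds were 2.54, 1.15 and 1.45. The PTP4A1 sequence holds 2 matches to this motif. The difference between the specific lists was 1.46 points (-0.378 to 3.22), an interval that includes 0. The NR2E3 half-site was at 14.5%, 14.8% and 13.2%, close to the 13.6% of all windows, and the specific lists differed by -1.62 points (-4.22 to 0.903).

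**Figure D5:**
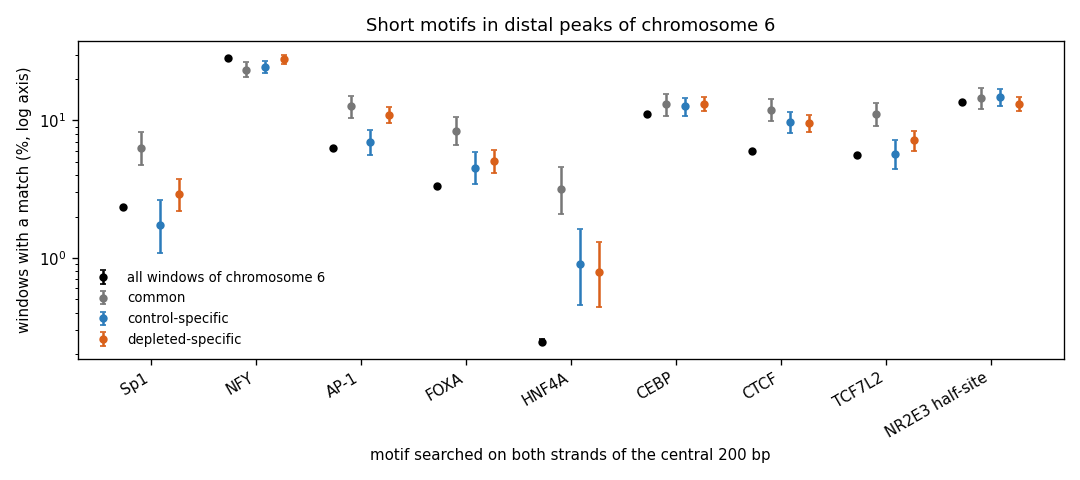
Share of windows with at least 1 match to each motif (percent, log axis) in the central 200 bp of distal peaks of chromosome 6 by list and in all windows of that length on the chromosome, with exact binomial 95% intervals. HNF4A, FOXA and TCF7L2 are most frequent in common peaks, AP-1 is at 10.9% of depleted-specific against 6.94% of control-specific peaks, and the NR2E3 half-site is near 13.6% throughout.

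The plot of motif shares also shows the NFY, CEBP and CTCF motifs. The NFY motif was in 23.4% of common, 24.6% of control-specific peaks and 27.8% of depleted-specific ones, against 28.3% of all windows, and its specific lists differed by 3.18 points (-0.0442 to 6.36). The CEBP motif was in 13.1%, 12.6% and 13.1%, against 11.1%, with folds of 1.48, 1.30 and 1.35 against windows of like GC content. The CTCF motif was in 11.97%, 9.74% and 9.53%, against 5.98%, which came to folds of 1.27, 1.22 and 1.19 against windows of like GC content. Between segments, the share of peaks with an AP-1 match was 9.10% (7.91 to 10.4) in the short-arm, 10.9% (7.51 to 15.3) in the sparse and 11.3% (9.76 to 13.0) in the distal long-arm segment. These intervals overlapped, which does not show that the shares were equal, and no interval was computed for their differences.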

How the data were processed

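FAIRE-seq was measured in 2 HepG2 libraries, 1 per group, which were grouped by treatment per the labels. The submitters' processing notes name bcl2fastq 2.17, Trimmomatic 0.39, Bowtie2 2.4.5, SAMtools 1.14 and hg38. The authors called peaks with HOMER at a q-value under 0.05, annotated them and deposited 3 lists of 300 bp peaks, each with a peak score and a distance to the transcription start site in bp. The criterion that separated common from specific peaks is not given in the sources used here, and no correction for an input library or for copy number is stated. The deposited score is a scaled number of tags. Below a score of 10, 100% of scores were whole multiples of 1 step per list after allowing for rounding, and scores were converted to tags with it. If scores are per 10 M (mega) tags, which is not stated, the control library held 24.6 M and the NR2E3-depleted library 19.7 M tags. Common peaks carry scores on the control scale.

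Densities are per Mb without undetermined bases. Steps were found by exact segmentation of Poisson counts per 1 Mb, scaled for overdispersion, with at least 3 bins per segment and a penalty factor of 3. Ratios carry exact binomial, shares Clopper-Pearson, differences of shares Newcombe and counts Poisson intervals. Genes and sequences came from GENCODE release 44 and hg38. For comparison at like GC content, motif shares of all windows were averaged over GC classes in the proportions of the peaks. The scripts were tested on simulated data.

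The members, the 6 gene lists and the tests were chosen with earlier results of these data known. Genes were named as the 10 nearest to the most distal peaks, the 3 with the largest difference between the specific lists in each direction, those nearest to the 3 highest scores per list and the 3 with the most peaks per gene list. Genes named for leading a bin or segment or for holding peaks within them, ARG1, LPA, PLG and RSPO3 were chosen after their values were seen. LPAL2 matched no gene and was left out, and 1 marker gene and 1 motif are not reported here. Alternatives covered the score and tag thresholds, merging, bin size, penalty, class and list. Scripts ran in Python 3.11.15 with scipy 1.17.1, pandas 2.3.3, numpy 2.4.6 and, for plots, matplotlib 3.10.9.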

Additional observations from a re-analysis of the deposited data

How the results depend on the processing

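No paired analysis was possible because there was a single library for either group, so no test was made and no replicate could be left out. Of 37 alternatives, 5 moved a value and 0 reversed a direction. The other 32 left ratios and differences within the interval of the reported value, the step and the GC content within 1 Mb or 1 point, and counts within 1.5 times. Counts so kept include 3 steps in place of 2 with 0.5 Mb bins, and 69 to 94 dense bins in place of 81. The density ratio of the arms, 2.24, moved to 2.48 with common and to 2.07 with depleted-specific peaks alone. The ratio of depleted-specific to control-specific peaks, 1.57, moved to 2.73 at a score of at least 6 and to 1.16 at 12 tags or more. The step at 57.3 Mb moved to 63.6 Mb with common peaks alone, which lies inside the bin at PTP4A1 from 63 to 64 Mb. The difference in mix between the arms had an interval without 0 at a score of at least 6, at -4.17 points (-8.20 to -0.0995), and with 0 under its other alternatives. The alternatives at a score or tag minimum for the segments and for AP-1 were chosen after the data were seen. With a median of 12 to 16 tags per peak, whether a single peak is specific could not be resolved at this depth.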

Other observations

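Long genes beyond those named in the report also held many distal peaks within them, and these genes were chosen by their counts. DST, a cytoskeletal linker gene that spans 497 kb just before the step at 57 Mb, held 29, of which 7 were common, 9 control-specific and 13 depleted-specific. PTPRK, a receptor-type tyrosine phosphatase gene on the long arm, held 25, of which 4 were common, 7 control-specific and 14 depleted-specific. GMDS, which encodes an enzyme of GDP-fucose synthesis, held 24, of which 1 was common, 12 control-specific and 11 depleted-specific. AIG1, an androgen-induced gene on the long arm, held no common peak, 6 control-specific and 16 depleted-specific peaks. GMDS and AIG1 thus held few or no common peaks, and the peaks of GMDS were split about evenly between the specific lists.

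The short-arm end also carried transcription factor genes with many distal peaks, singled out after their counts were seen. FOXQ1, a forkhead factor gene, was nearest to 21 intergenic peaks, of which 11 were common, 4 control-specific and 6 depleted-specific. IRF4, an interferon regulatory factor gene, was nearest to 22, of which 5 were common, 10 control-specific and 7 depleted-specific. FOXC1, another forkhead factor gene, was nearest to 10, with 5 in each specific list and none in the common list. All 10 were intronic and lay between 1632138 and 1869488, within GMDS and not within FOXC1. They are therefore among the peaks counted above for GMDS. Promoter peaks of chromosome 6 had another mix than the distal ones, with 298 common, 90 control-specific and 191 depleted-specific peaks.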
